A study of Nothobranchius furzeri with 15 samples.

Results

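A liver of the turquoise killifish (Nothobranchius furzeri) treated with rotenone at 15 pM stood apart from the others. Relative to its total counts, it had far fewer reads of each of 211 genes than every other liver in the study. The 211 genes were chosen by their measured levels in all 15 libraries, out of 9192 genes with a mean of 5 to 1000 CPM, 15834 genes that passed a filter on low counts and 26739 gene identifiers in all. CPM is a gene's read count relative to the total of its library, adjusted with TMM factors, which correct for differences in the make-up of the libraries. A gene was taken when its log2 CPM in library 4 of the 15 pM group lay more than 2 units (4-fold) below the lowest of the other 14 libraries. A second condition left out 6 of the 217 genes that met this gap, because the other 4 libraries of 15 pM also lay below all 10 libraries of DMSO and 150 pM. All values of library 4 were therefore used in the choice and are given as a description. Where values from a fit that contains library 4 are given, they too are a description, and nothing is read from them.

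The study counted RNA in livers of male fish of the GRZ strain, an inbred and short-lived laboratory strain, at 9 weeks of age. There were 5 libraries each from the solvent control (DMSO), rotenone at 15 pM and rotenone at 150 pM. Libraries carry the number in their titles, which is 1 to 5 in DMSO and at 15 pM and 8 to 12 at 150 pM. The labels do not give the route or length of exposure, nor do they say whether libraries of a group are from separate fish. The p-values below thus refer to the spread among these libraries alone, part of which may be technical.

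Rotenone blocks complex I of the mitochondrial respiratory chain, the entry point for electrons from NADH. The liver produces plasma proteins and bile and handles fuels and foreign compounds, mostly in hepatocytes, alongside endothelial, bile duct and immune cells. RNA was taken from the whole tissue, so fewer cells of a type and less RNA per cell cannot be told apart. The deposited identifiers carry no gene names, and 0 of them were found among the 38438 genes of the reference table used here. The functions of the 211 genes are therefore not described, no cell type marker could be looked up to check the labelled tissue, and 4 genes are given by their identifiers.

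Library 4 was not shallow, and it differed from the rest in both directions. It held 24251062 counts, and the other 14 libraries held between 22185038 and 35672589. Its TMM factor of 1.11, the 30.3% of counts in its 10 most abundant genes and its Spearman correlation of -0.09 between a gene's deviation and its length all lay within the ranges of the other libraries (0.864 to 1.15, 19.1% to 32.7% and -0.17 to 0.14). It had at least 1 count in 19107 genes, against 18903 to 20245 in the others. Of the 9192 genes, it was the lowest of the 15 libraries in 2486 (27.0%) and the highest in 2317 (25.2%). No other library was the lowest in more than 836 or the highest in more than 1060. With library 4 set aside, none of the 14 was the lowest in more than 13.7% or the highest in more than 13.8%. The middle 50% of these genes deviated in library 4 by -0.61 to 0.54 on the log2 scale from the median of the other 14, whereas the widest such range of another library was -0.27 to 0.23, in library 1 of 15 pM. In 517 genes library 4 lay more than 4-fold below that median, and the 211 are among them. The corresponding number in the other libraries was 12 to 130.

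Applied to each library in turn, the 4-fold gap below all others was met by 217 genes in library 4 of 15 pM. It was met by 6 genes in library 10 of 150 pM, by 4 genes in library 9 of 150 pM and by 0 or 1 gene in each of the other 12. The opposite gap, above all others, was met by 44 genes in library 4, by 2 genes in library 1 of DMSO and by 0 in the remaining 13. For any other library the comparison included library 4, whose own extreme values can hide a gap. The numbers are thus not on equal terms. Among genes within the bounds on the mean, gaps of this size, counted in this way, were found almost wholly in library 4. There they were more often downward than upward. The filter on low counts and the lower bound can each leave out a gene that is high in library 4 alone and low elsewhere. They act less on a gene that is low in library 4 alone. The excess of downward gaps may therefore be partly set by the filter and the bound, and upward gaps without them were not counted.

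The depletion was deep and incomplete. In library 4 the 211 genes stood at between 0.311% and 19.6% of their median CPM in the other 14 libraries, with a median of 7.77%. Their reads made up 0.193% of all counts of library 4 and 1.84% to 2.68% of the counts of the others. In DMSO this share was 2.01 ± 0.0846% (SD, n = 5), in the other 15 pM libraries 2.16 ± 0.237% (SD, n = 4) and at 150 pM 2.29 ± 0.249% (SD, n = 5). No gene was without a read in library 4. In 4 genes it had 1 to 3 counts, in 54 it had 4 to 30 and in 153 more than 30, so counting error is small for most of them. The gap to the lowest other library had a median of 2.65 log2 units. It was over 3 units (8-fold) in 79 genes, over 4 in 27, over 5 in 9 and over 6 in 3. At the threshold, the last gene inside had a gap of 2.003, with 26.6 CPM in library 4 and 107 CPM in the lowest other library, and the first gene outside had a gap of 1.992, with 0.333 against 1.54 CPM. The gaps ran on without a break across the threshold.

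**Figure D1:**
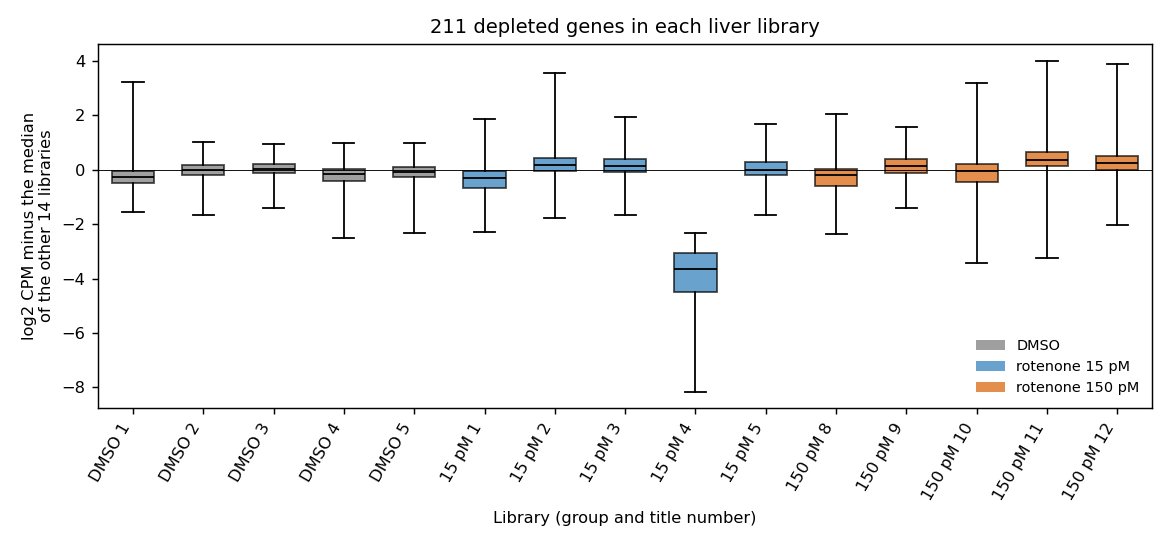
Each box gives the middle 50% of the 211 depleted genes in 1 library, with the median as a line and whiskers to the lowest and highest gene; the vertical axis is log2 CPM minus the gene's median over the 14 libraries other than library 4 of 15 pM. The median is -3.63 in library 4 of 15 pM and between -0.30 and 0.34 in the other 14.

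**Figure D2:**
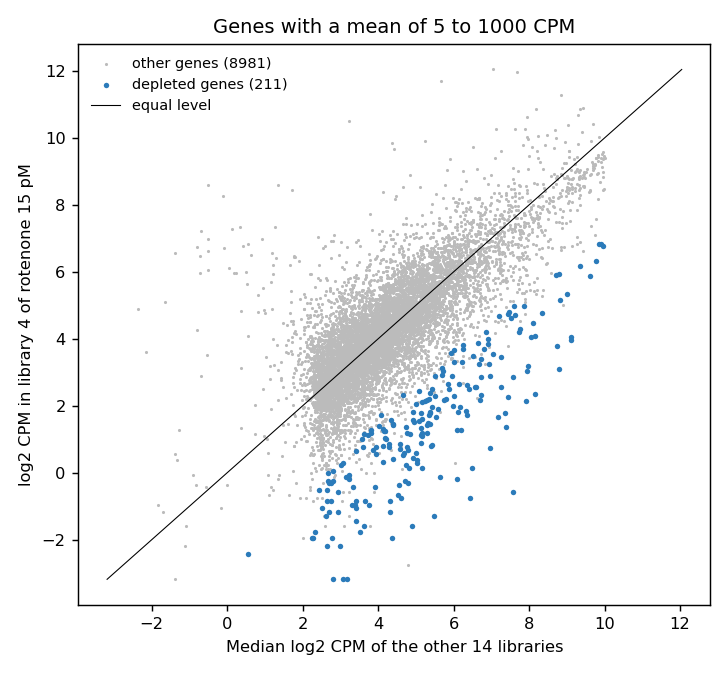
Each point is 1 of 9192 genes with a mean of 5 to 1000 CPM, with its median log2 CPM in the other 14 libraries on the horizontal axis and its log2 CPM in library 4 of 15 pM on the vertical axis. The 211 depleted genes (blue) lie below the line of equal level at all levels, and the other genes (grey) lie on both sides of it.

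The depleted genes came from all levels and lengths, more often from higher levels. Among genes with a median under 10 CPM in the other 14 libraries, 32 of 2813 (1.14%) were depleted. This share was 55 of 3774 (1.46%) between 10 and 30 CPM, 71 of 1880 (3.78%) between 30 and 100 CPM and 53 of 725 (7.31%) over 100 CPM. A prior count of 2 is added before the log, which makes the gap harder to reach where counts are few. Its part in the low shares at low levels was not tested. With a prior count of 0.5 the rule gave 215 genes, and with 5 it gave 201. Per kilobase of gene length, the median level of the depleted genes was 14.7 CPM, against 5.65 CPM over all 9192 genes. Their median length was 2774 bases, and that of the 9192 genes 3186 bases. In 4 classes of about equal size, from the shortest to the longest genes, 60, 56, 46 and 49 genes were depleted. Across the 211 genes the gap had a Spearman correlation of 0.03 with length and 0.07 with the median CPM of the other libraries, and over all 9192 genes these were 0.06 and 0.23. The 211 genes hold only gaps over 2, and genes share their libraries and depth in both values.

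Nfu_g_1_003547 had the largest gap. In DMSO libraries 1 to 5 it stood at 220, 191, 264, 133 and 268 CPM. At 15 pM it stood at 133, 141, 263 and 247 CPM in libraries 1, 2, 3 and 5 and at 0.593 CPM in library 4. At 150 pM it stood at 89, 168, 64.9, 261 and 190 CPM in libraries 8 to 12. Library 4 alone was low, and the 3 groups overlapped without it. Its 16 counts in library 4 give an exact Poisson 95% interval of 0.339 to 0.962 CPM, which covers counting error only. The lowest other library was 110-fold higher, with an interval of 67.5 to 192 from the same counting error. Without library 4, its log2 fold change at 150 pM against DMSO was -0.47 (SE 0.351, edgeR adjusted p = 0.404).

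The genes next in rank of gap are low in library 4 by the ranking itself, and their values are a description. The gene with the second largest gap had 0.518 CPM in library 4 and 38.9 to 166 CPM elsewhere. The gene with the next gap had 1.04 CPM in library 4, with 72.3 to 117 CPM in the other 14 libraries, a range of less than 2-fold. Library 4 lay far outside the spread of every group in both.

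Nfu_g_1_008124 had the highest mean of the 211 genes. Its levels were 578, 702, 794, 541 and 1040 CPM in DMSO libraries 1 to 5, then 657, 975, 878 and 1020 CPM in 15 pM libraries 1, 2, 3 and 5, and 1060, 1660, 1110, 1190 and 1870 CPM in 150 pM libraries 8 to 12. Library 4 of 15 pM held 110 CPM from 2958 counts. It was the lowest library by 4.94-fold, and every 150 pM library lay above every DMSO library. Without library 4 the gene rose at 150 pM against DMSO, by 0.92 on the log2 scale (SE 0.219, adjusted p = 0.0167 by edgeR). With library 4 in the fit, the same change had an adjusted p of 0.216.

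The 14 libraries other than library 4 were used to ask how these genes behaved with rotenone where they were not depleted. At 150 pM against DMSO, 22 of the 211 genes rose and 1 fell (edgeR quasi-likelihood test, adjusted p under 0.05 over 16018 genes). Over all genes tested, 5.57% were called higher and 6.55% lower, and in the depleted genes these shares were 10.4% and 0.474%. In either direction, 10.9% of the depleted genes and 12.1% of all genes were called, so the depleted genes were not called more often. The rule names DMSO and 150 pM libraries alike, but it does use their values. A gene that falls far in any 1 of them is more readily left out. The median deviation of the 211 genes had an SD of 0.119 in DMSO and 0.217 at 150 pM. The split of rises and falls may therefore be partly set by the choice of genes, which was not tested. The median log2 fold change of the 211 genes was 0.23, with a middle 50% of 0.00 to 0.47, against a median of 0.01 over all genes. It was above 0 in 158 and below 0 in 53 of them, and above 0 in 51.4% of all genes. The 211 genes share their libraries and varied together in part, as described below, so they are not separate observations. Their median deviation was 0.34, 0.24 and 0.14 in 150 pM libraries 11, 12 and 9, but -0.19 and -0.06 in libraries 8 and 10. In the DMSO libraries it ran from -0.27 to 0.03. All 5 libraries of 150 pM lay above all 5 of DMSO in 16 genes (7.58%, against 5.69% of the 9192) and below them in 1 (0.474%, against 6.38%). Without DMSO library 2, 9 rose and 0 fell, and without DMSO library 5, 15 rose and 0 fell. Without 150 pM library 11, 14 rose and 3 fell. The shares called over all genes in these smaller fits are not given here. Whether the changed numbers are particular to the 211 genes was therefore not tested. In the fit of all 15 libraries, whose shared spread holds the values that chose the genes, 0 of the 211 were called. Over all genes, 5.66% were called in either direction at the same adjusted threshold. Of the 211, 13 had an unadjusted p under 0.05, and the share of all genes at that threshold is not given.

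**Figure D3:**
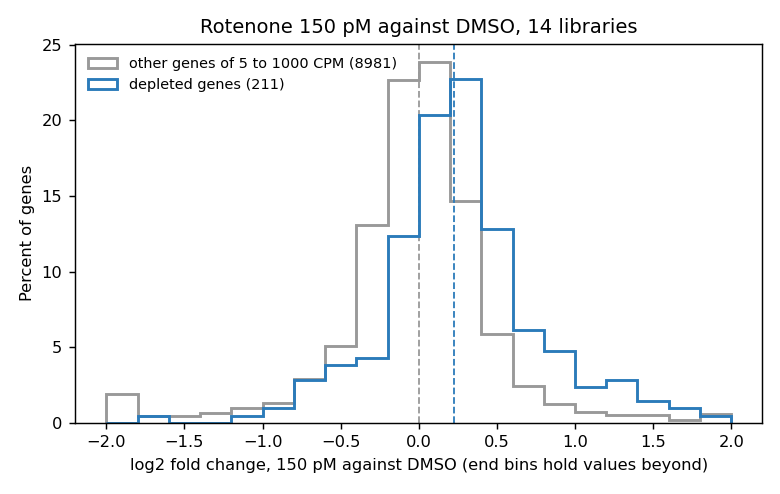
The horizontal axis is the log2 fold change at 150 pM against DMSO from the fit of 14 libraries, in bins of 0.2, and the vertical axis is the percent of genes, for the 211 depleted genes (blue) and the other genes of 5 to 1000 CPM (grey); dashed lines mark the medians. The depleted genes are shifted to higher values, with a median of 0.23, and both distributions span 0.

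Nfu_g_1_020571 had the largest rise among these calls. It was at 20.5, 4.24, 5.41, 15.2 and 8.39 CPM in DMSO libraries 1 to 5, then at 9.15, 4.93, 12 and 5.71 CPM in 15 pM libraries 1, 2, 3 and 5 and at 0.444 CPM in library 4, from 12 counts. At 150 pM it was at 56.3, 40.9, 50.3, 32.5 and 33.4 CPM in libraries 8 to 12, all above every other library. Its log2 fold change at 150 pM was 1.98 against DMSO (SE 0.399, edgeR adjusted p = 0.00735) and 2.4 against the other 4 libraries of 15 pM (SE 0.442, adjusted p = 0.00335). Against DMSO the adjusted p was 0.0618 in the fit of all 15 libraries.

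Nfu_g_1_001486 was the 1 gene that fell. It was at 734, 630, 612, 457 and 435 CPM in DMSO libraries 1 to 5, then at 536, 1150, 560 and 430 CPM in 15 pM libraries 1, 2, 3 and 5, and at 8.55 CPM in library 4. At 150 pM it was at 86, 211, 41.5, 351 and 247 CPM in libraries 8 to 12, each below every DMSO library and every 15 pM library except library 4. Its log2 fold change at 150 pM against DMSO was -1.60 (SE 0.464, edgeR adjusted p = 0.0383). This call was lost without any 1 of the 5 DMSO libraries (adjusted p from 0.0517 to 0.083), without 150 pM library 8 or 9 (0.0764 and 0.0564), without 150 pM libraries 8 and 10 together (0.0662), with the 2 groups alone (0.0525) and with all 15 libraries (0.235).

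**Figure D4:**
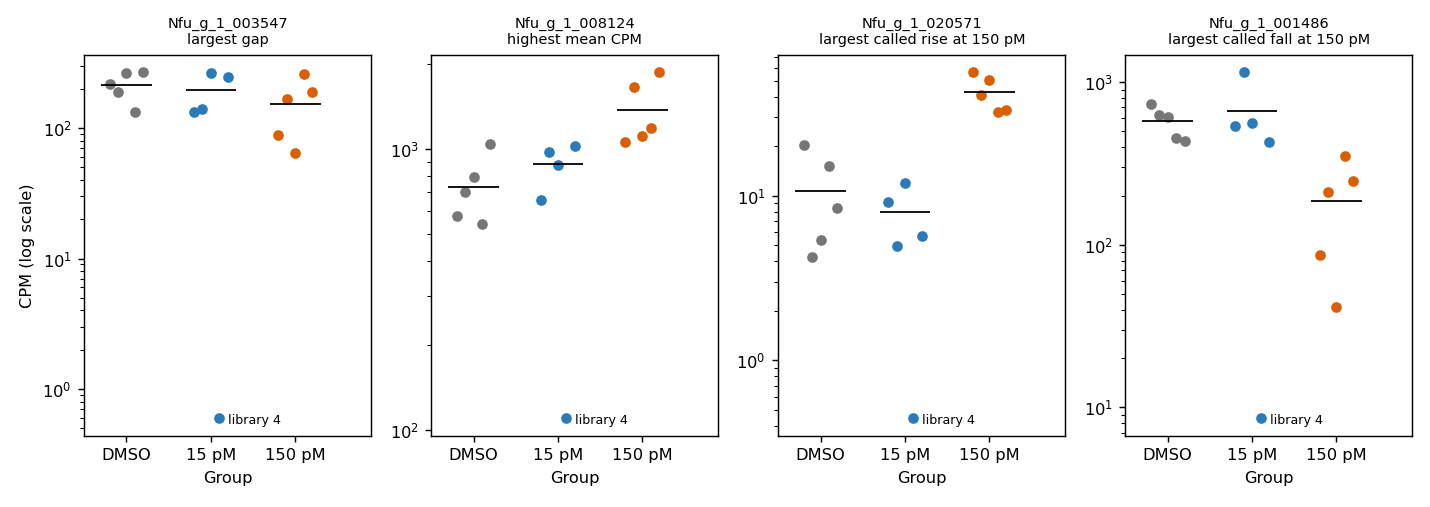
CPM on a log axis in each library of DMSO (grey), 15 pM (blue) and 150 pM (orange) for the 4 genes given by identifier; each point is 1 library and each line is the mean of the group without library 4 of 15 pM. Library 4 of 15 pM is the lowest point in all 4 panels, and the 150 pM libraries lie above DMSO in 2 of them and below DMSO in 1.

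At 15 pM against DMSO, library 4 left out, 6 of the 211 genes (2.84%) rose and 0 fell. Over all genes 1.8% were called higher and 6.77% lower. The second condition of the rule removes genes that are low in all the other 15 pM libraries, so these counts are partly set by the choice, and nothing is read from them. At an unadjusted p under 0.05, 37 of the 211 were higher and 6 lower, with 9.88% and 14.8% of all genes. DESeq2 called 12 higher and 2 lower, with 3.9% and 9.7% of all genes, and limma voom 6 and 1, with 1.75% and 6.56%. EdgeR scaled by library totals alone called 3 higher and 3 lower. Without DMSO library 2 the edgeR call was made in 3. Shares over all genes with library totals or without DMSO library 2 are not given here, and nothing is read from those counts. The median log2 fold change was 0.18, against 0.03 over all genes, and it was 0.04 with library totals. With library 4 included the median was -0.13, which the choice of genes sets.

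Between the doses, again without library 4, 15 of the 211 genes (7.11%) were higher at 150 pM than at 15 pM and 4 (1.9%) lower. Over all genes 9.53% were called higher and 5.45% lower, so both shares of the 211 lay below these. This contrast is limited by the rule in the same way. The median log2 fold change was 0.06. Scaled by library totals alone, 32 were higher and 4 lower. The number of higher genes was 9 without 15 pM library 1 and also without 15 pM library 2, and 7 were lower without 150 pM library 9 or 11. Shares over all genes with these settings are not given here, and nothing is read from their counts. The comparisons against DMSO share their control libraries, and all 3 share libraries with each other.

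Over the 14 libraries, the correlation of a depleted gene with the mean of the other depleted genes had a median of 0.51, and it was over 0.5 in 106 of 211 (50.2%). Among the other genes of 5 to 1000 CPM the correlation with that mean had a median of -0.01, and 10.6% were over 0.5. The median correlation of pairs of depleted genes was 0.25 (middle 50%, 0.00 to 0.47). The depleted genes are set here against the mean of their own set and the others against a set they are not in. Taken each within its own set, the first principal component held 29.9% of the variance of the depleted genes and 23.3% of that of the 9192. These values are descriptions over the same 14 libraries, whose depth and TMM factors all genes share, and the depleted genes are more abundant than the others. The median SD of log2 CPM over the 14 libraries was 0.435 in the depleted genes and 0.291 in the 9192. The rule acts on this spread too, because it asks that the lowest library be high.

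**Figure D5:**
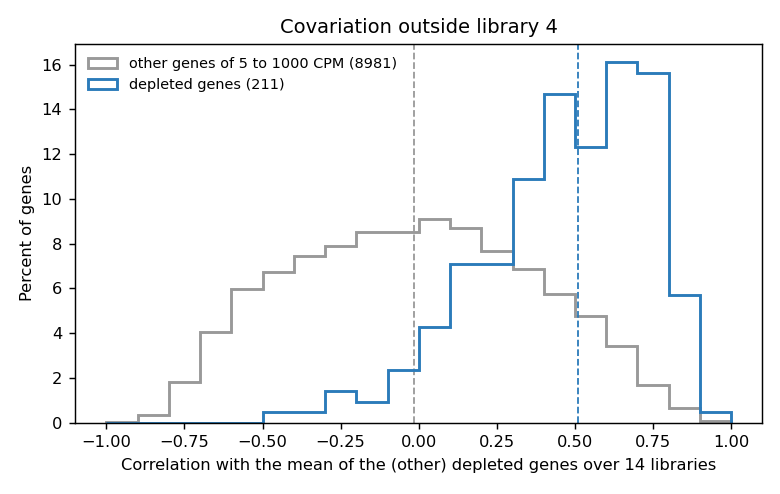
The horizontal axis is the correlation over 14 libraries of a gene's log2 CPM with the mean of the (other) depleted genes, in bins of 0.1, and the vertical axis is the percent of genes, for the 211 depleted genes (blue) and the other genes of 5 to 1000 CPM (grey); dashed lines mark the medians. The depleted genes have a median of 0.51 and the other genes one of -0.01.

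At the low end of this shared variation stood libraries of all 3 groups, and at the high end mainly library 11 of 150 pM. Library 1 of 15 pM was the lowest of the 14 in 46 of the 211 genes (21.8%, against 12.1% of the 9192). DMSO library 1 was the lowest in 41 (19.4%, against 13.7%) and 150 pM library 8 in 34 (16.1%, against 6.88%). For 150 pM library 10 this was 25 (11.8%, against 10.9%) and for DMSO library 4 it was 20 (9.48%, against 3.84%). The highest was 150 pM library 11 in 64 genes (30.3%, against 6.20%). Next came 15 pM library 2 in 31 (14.7%), which is near its share of the 9192 (13.8%). Library 12 of 150 pM was the highest in 18 (8.53%, against 4.53%), while 150 pM libraries 8, 9 and 10 lay below their shares of the 9192. Each DMSO library was the highest in 2 to 5 genes (0.948% to 2.37%, against 1.86% to 8.83%). On the log2 scale the median deviation of the 211 genes was -0.096 ± 0.119 in DMSO (SD, n = 5), 0.005 ± 0.217 in the 4 other libraries of 15 pM (SD, n = 4) and 0.094 ± 0.217 at 150 pM (SD, n = 5), and the groups overlapped. Higher TMM factors mostly went with lower deviations across the 14 libraries. Factors of 0.864 to 0.969 (15 pM libraries 2 and 3, 150 pM libraries 9, 11 and 12) went with the highest deviations, 0.14 to 0.34. Factors of 1.15, 1.13 and 1.12 (DMSO library 1, 150 pM libraries 8 and 10) went with -0.27, -0.19 and -0.06. The lowest deviation, -0.30 in 15 pM library 1, had a factor of 1.01. The part of the factors in the shared variation was not tested. As a share of all counts, with no TMM factor, the 211 genes were at 2.01% in DMSO library 1, inside the range of the other DMSO libraries. They were at 2.68% in 150 pM library 11, the highest of all. In 150 pM libraries 8 and 10 they were at 2.03% and 2.15%, against 1.89% to 2.12% in DMSO. In 15 pM library 1 they were at 1.84%, the lowest of the 14. In the other 14 libraries between 2 and 23 of the 211 genes lay more than 2-fold below their median, with the highest number in 15 pM library 1, while all 211 did so in library 4.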

How the data were processed

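RNA was measured in 15 liver libraries (TruSeq RNA kit v2, per the labels' protocols; total RNA). Named in the submitters' processing notes, without their roles, are featureCounts 1.4.6-p4, STAR 2.4.1d and CASAVA 1.8.2. The build, gene models and handling of reads with several matches are not given in the sources used. Genes that share reads with near-identical copies, or that overlap other genes, are therefore uncertain. The authors deposited whole-number read counts per gene, not normalized, and these counts were used for every level and test. The RPKM values the authors deposited (reads scaled by gene length and library total) had mostly been divided by another library's total: over 105783 large values, the library's own total gave 1 length per gene within 0.2% for 8.73%, and totals taken in turn down the rows for 100%. They served only to recover gene lengths.

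Genes were filtered with filterByExpr (minimum count 10) and scaled by TMM, and log2 CPM used a prior count of 2. The mean for the bounds of 5 and 1000 CPM was taken over CPM in all 15 libraries. Groups were compared with edgeR 4.0.16 in R 4.3.3 (two-sided quasi-likelihood F-test with 1 mean per group and no covariate), without library 4 of 15 pM, with Benjamini-Hochberg adjustment over all 16018 genes kept and a threshold of 0.05. Alternatives used DESeq2 1.42.0, limma 3.58.1 (voom), other scalings and filters, and libraries left out. The genes, the lists and the tests were chosen with earlier results of these data known. The genes given by identifier are those with the largest gap, the highest mean, and the largest called rise and fall at 150 pM; the next 2 genes in rank of gap were added after their values were seen. Lists of cell type markers and pathways had been written by gene symbol and could not be applied. Total counts ran from 22185038 to 35672589 a library.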

Additional observations from a re-analysis of the deposited data

Results flagged for a closer look

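In each set of 5 libraries, the most extreme value was compared with its nearest neighbour, and the gap as a share of the whole range was held against Dixon's 95% critical value of 0.71. Chance passes about 1 in 20 sets, and 8 of the 33 sets tested passed. In 6 of the sets that passed, the far value was library 4 of 15 pM, which the choice of genes fixes, so that they show nothing beyond that choice: the median deviation of the 211 genes (0.875), their share of all counts (0.742), and the log2 CPM of Nfu_g_1_003547 (0.886), Nfu_g_1_008124 (0.804), Nfu_g_1_020571 (0.72) and Nfu_g_1_001486 (0.799). In 2 sets that the choice did not fix, DMSO library 1 was the highest of its group in total counts (0.763) and in TMM factor (0.847). With 33 sets tested, chance alone could give as many.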

How the results depend on the processing

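The rule gave 191 to 220 genes under other scalings, prior counts, bounds and filters, except 297 without bounds on the mean, 577 with a gap of 1 and 79 with a gap of 3; with library totals 189 of the 211 remained. Leaving out 1 other library gave 202 to 219. Calls among the 211 at 150 pM against DMSO numbered 9 to 27 when 1 library was left out and 36 with DESeq2. DESeq2 called 34 of them higher and 2 lower, with 9.51% and 9.02% of all genes. With all 15 libraries the number was 0 (edgeR), against 5.66% of all genes, and 13 of the 211 had an unadjusted p under 0.05. For libraries left out, library totals, 2 groups alone or a block, shares over all genes are not given. Nothing about the 211 genes as a set is read from those counts. At 15 pM against DMSO, calls among the 211 numbered 3 to 9 when 1 library was left out. They numbered 14 with DESeq2, 11 with only the 2 groups and 12 without 150 pM libraries 8 and 10 (chosen after seeing the data). With all 15 libraries 0 were called, against 4.21% of all genes, and 4 had an unadjusted p under 0.05. Shares of all genes at the unadjusted threshold are not given for the fits of all 15 libraries. Between the doses the calls numbered 13 to 22 when 1 library was left out and 36 with library totals (32 higher, 4 lower). With all 15 libraries 7 (3.32%) were called, against 14.1% of all genes. Medians of the log2 fold changes ranged, with 1 library left out, from 0.15 to 0.31 at 150 pM against DMSO, from 0.11 to 0.24 at 15 pM against DMSO and from -0.05 to 0.13 between the doses. The median at 15 pM was 0.04 with library totals and -0.13 with all 15 libraries, and that between the doses 0.36 with all 15. With all 15 libraries, library 4 itself enters the mean of 15 pM and the shared spread, so the choice of genes sets those values; for the other settings the cause was not tested. DMSO and 15 pM share title numbers 1 to 5. The deviations of libraries with the same number correlated by 0.16, 0.07, -0.07 and -0.01. Those of libraries with different numbers correlated by -0.16 to 0.25. The labels do not say whether the numbers mark pairs, and these few values cannot decide it. With the replicate block in a fit of the DMSO and 15 pM libraries alone, edgeR called 0 of the 211 genes. Of the 211, 59 had an unadjusted p under 0.05 in that fit. The same libraries without the block gave 11 of the 211 called, with 57 at an unadjusted p under 0.05. No other comparison shares numbers. Depth limits the 4 genes with 1 to 3 counts in library 4 most.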

Other observations

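The 211 depleted genes lay beside each other in the deposited table more often than other genes did. Of the 211, 29 (13.7%) had another depleted gene in an adjoining row, in 16 pairs of rows. Of the other genes of 5 to 1000 CPM, 154 (1.71%) adjoined a depleted gene. The files do not say what the order of rows means, and reads shared between similar neighbouring genes were not tested.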
